A study of Macaca mulatta with 10 samples.

Results

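The transcripts described here are those of 7 pluripotency genes, POU5F1, SOX2, NANOG, SALL4, DPPA4, NR5A2 and DNMT3B, in a rhesus macaque embryonic stem (ES) cell line and in cells differentiated from it. Every probe set that the array annotation assigns to 1 of these genes was taken, which gave 11 of the 44210 tested probe sets and 7 of the 13191 measured genes. SOX2 and NR5A2 had 3 probe sets each, and each of the other genes had 1. The line is ORMES6, which the labels give as grown with bFGF on feeder layers of mouse embryonic fibroblasts. To obtain hepatic foci, the cells were cultured together with hESdF, a line of fibroblast-like cells derived from human ES cells. The 10 Affymetrix arrays form 5 groups of 2: undifferentiated ES cells (ES), cells of in vitro differentiation stage 2 (IVDS2) and stage 3 (IVDS3), and 2 areas of the stage 2 colonies, their central foci (IVDS2-C) and their periphery (IVDS2-P).

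All groups came from this 1 line, no group carries a genetic change, and the labels give "ESC" as the cell type of all 10 samples, the differentiated ones included. The labels state 2 repeats per condition and not whether these were separate cultures, so the p-values here reflect only how far the 2 repeats differ, which may be technical variation. The deposited values are log2 values that had been centred on the median of the 10 arrays for each probe set. A value of 0 is therefore the middle of the 10 arrays and not an absence of signal, and the values give differences between arrays but no levels and no order between genes. In bulk RNA, fewer cells of a type and less RNA per cell cannot be told apart.

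POU5F1 (also called OCT4) and SOX2 are transcription factors that bind DNA together at enhancers of pluripotent cells and sustain their own expression and that of NANOG. The 3 factors form the core of the pluripotency network. In the usual textbook account they are lost as primate ES cells differentiate, though not in every lineage, since SOX2 is also made in neural progenitors. SALL4, DPPA4 and NR5A2 act around this core, and DNMT3B, a DNA methyltransferase, is a much used marker of primate ES cells.

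In IVDS3 cells 10 of the 11 probe sets, from 6 of the 7 genes, were lower than in ES cells, and the NANOG probe set was higher. These differences all passed the test, which was limma's moderated test with p-values adjusted over all 44210 probe sets and a threshold of 0.05. Differences that passed it are said to have risen or fallen. Of all probe sets, 17.9% rose and 19.9% fell in the same comparison. The median log2 change of the 11 probe sets was -3.24, against -0.11 for all tested probe sets. In each of the 4 differentiated groups the mean of the NANOG probe set was above its ES mean and that of the other 10 below theirs, though not all of these differences passed the test.

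**Figure D1:**
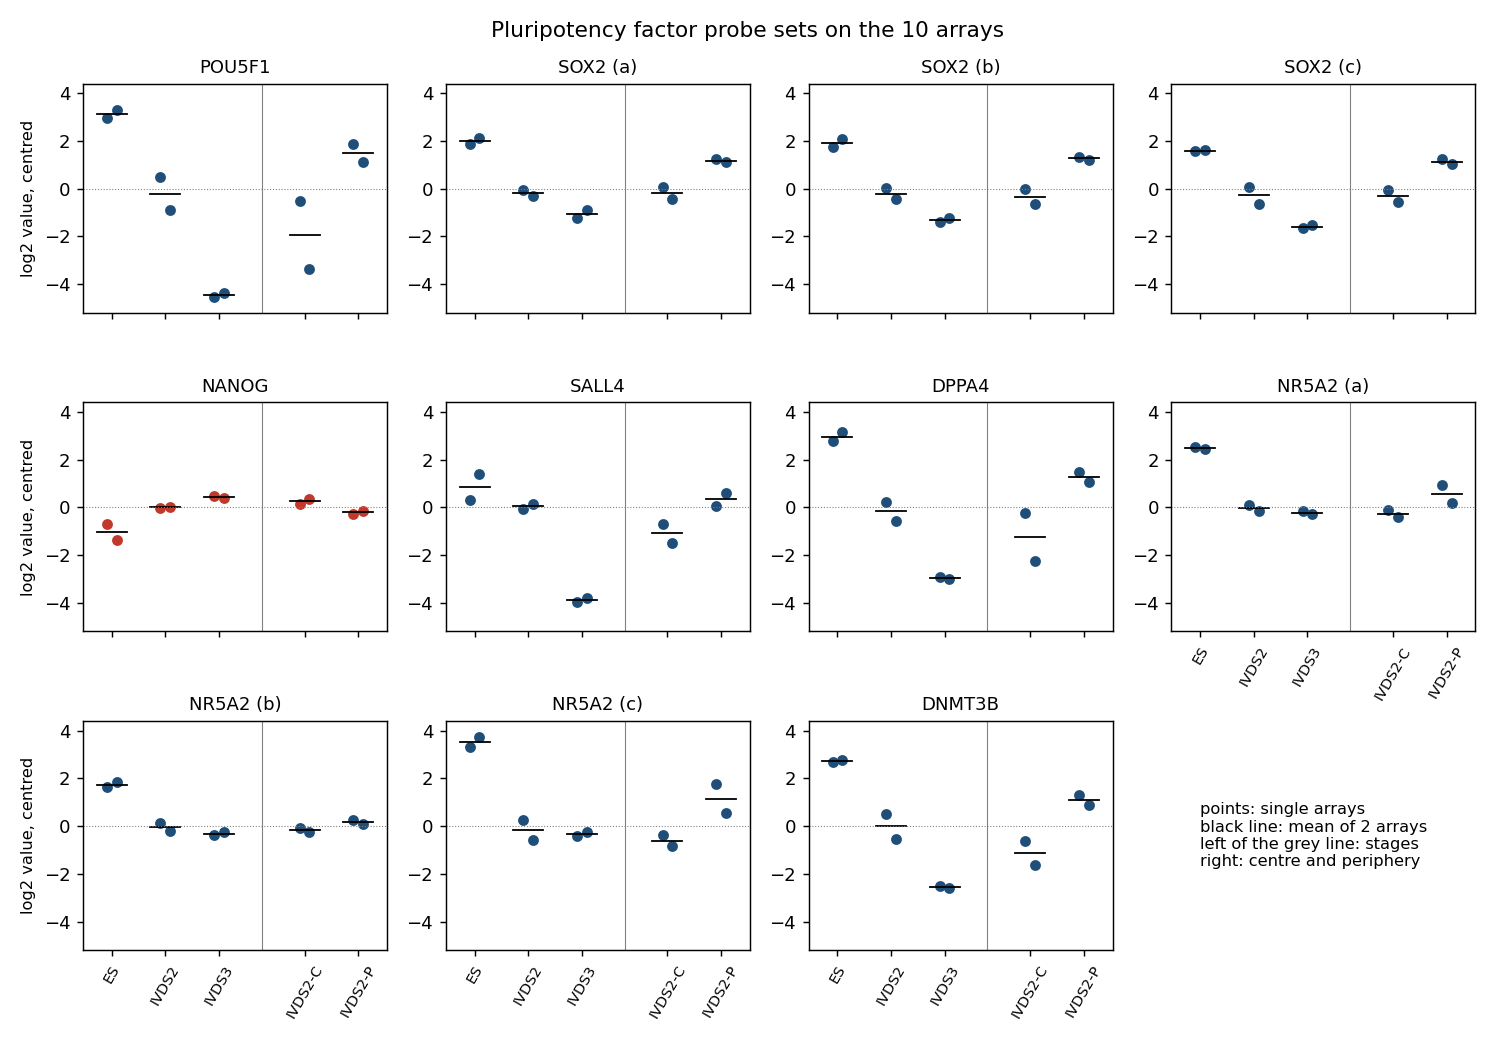
Centred log2 value (vertical axis) of the 11 probe sets on the 10 arrays, with the stages ES, IVDS2 and IVDS3 at left of the grey line and the colony centre (IVDS2-C) and periphery (IVDS2-P) at right. Points are single arrays and black lines are means of 2 arrays. Letters a to c tell apart the probe sets of SOX2 and of NR5A2, in the order in which the text names them. NANOG (red) is lowest in ES cells, at -0.70 and -1.37, where each other probe set has its highest mean.

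POU5F1 (probe set MmuSTS.2285.1.S1_at) had the widest range of the 11. Its values were 2.98 and 3.30 in ES cells, 0.50 and -0.91 in IVDS2 and -4.55 and -4.37 in IVDS3. In the stage 2 colonies it stood at -0.50 and -3.38 in IVDS2-C, against 1.85 and 1.10 in IVDS2-P. The stages did not overlap, nor did centre and periphery, but the 2 IVDS2-C arrays were far apart (replicate 2 minus replicate 1 was -2.87) and overlapped those of IVDS2. Against ES cells POU5F1 fell by 7.60 ± 0.77 on the log2 scale in IVDS3 (194-fold, adjusted p = 6.6e-05, limma; ± is the standard error, SE, throughout). It also fell by 5.08 ± 0.77 in IVDS2-C (33.7-fold, adjusted p = 0.00183), and it fell by 3.34 ± 0.77 in IVDS2 (10.2-fold, adjusted p = 0.0278). In IVDS2-P the log2 change was -1.66 ± 0.77, which did not pass (adjusted p = 0.226). It only just passed when either IVDS2-C array was left out. These arrays are not part of this comparison but enter the shared estimate of spread. The call in IVDS2 was lost without either ES array, without IVDS2 replicate 2 or without either IVDS3 array (adjusted p 0.0513 to 0.184), whereas those in IVDS3 and IVDS2-C held whichever array was left out.

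SOX2, the partner of POU5F1 on DNA and also a factor of neural progenitors, was read by 3 probe sets (MmugDNA.26126.1.S1_at, MmugDNA.26127.1.S1_at and MmugDNA.27729.1.S1_at) called a, b and c, that gave the same order of groups. The first had 1.85 and 2.13 in ES cells, -0.05 and -0.32 in IVDS2 and -1.24 and -0.90 in IVDS3. It had 0.05 and -0.45 in IVDS2-C, against 1.24 and 1.11 in IVDS2-P. Periphery arrays lay above both the centre and the whole IVDS2 culture, and only ES arrays lay above the periphery. Against ES cells the 3 probe sets fell by 3.06, 3.24 and 3.19 in IVDS3, by 2.19, 2.26 and 1.90 in IVDS2-C and by 2.17, 2.12 and 1.88 in IVDS2 on the log2 scale, with SEs of 0.20 to 0.23 and the highest adjusted p at 0.00133. In IVDS2-P the log2 changes were -0.81, -0.65 and -0.47. The first of these passed (adjusted p = 0.0391) and the others did not (0.132 and 0.25), and the call was lost without any of ES replicate 2, the IVDS2-P arrays or the IVDS3 arrays (adjusted p 0.0526 to 0.222).

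NANOG, a homeodomain factor that stabilises the pluripotent state, ran the other way. Its probe set (MmugDNA.16220.1.S1_at) had -0.70 and -1.37 in ES cells, -0.03 and 0.03 in IVDS2 and 0.47 and 0.41 in IVDS3. It had 0.16 and 0.36 in IVDS2-C, against -0.30 and -0.13 in IVDS2-P. Both ES arrays were below all 8 differentiated arrays, and both IVDS3 arrays were above all others. Against ES cells NANOG rose by 1.48 ± 0.20 on the log2 scale in IVDS3 (2.78-fold, adjusted p = 0.000337), by 1.30 ± 0.20 in IVDS2-C (2.46-fold, adjusted p = 0.00188), by 1.04 ± 0.20 in IVDS2 (2.05-fold, adjusted p = 0.0118) and by 0.83 ± 0.20 in IVDS2-P (1.77-fold, adjusted p = 0.0371). These comparisons share the 2 ES arrays, of which replicate 2 was 0.67 below replicate 1. Without ES replicate 2 the rise was 1.14 in IVDS3 (adjusted p = 0.000729), 0.96 in IVDS2-C (0.00464), 0.70 in IVDS2 (0.0322) and 0.49 in IVDS2-P, which no longer passed (0.127).

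The rise in IVDS3 and in IVDS2-C held whichever of the 10 arrays was left out, with log2 changes of 1.14 to 1.81 and of 0.96 to 1.63. The rise in IVDS2 was lost without either IVDS2 array (adjusted p = 0.0532 and 0.0764), and the rise in IVDS2-P held in 3 of the 10 such fits. ES replicate 2 also stood apart in the 373 probe sets for viral sequences, whose median was 0.34 on it and -0.10 to 0.05 on the other arrays. Whether this bears on NANOG was not tested. NANOG has 1 probe set here, so no other probe set of the gene can be set beside it. Its specificity for NANOG, against NANOG pseudogenes or related genes, was not tested, since no probe sequences were used here. Its range over the arrays was the smallest of the 11.

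**Figure D2:**
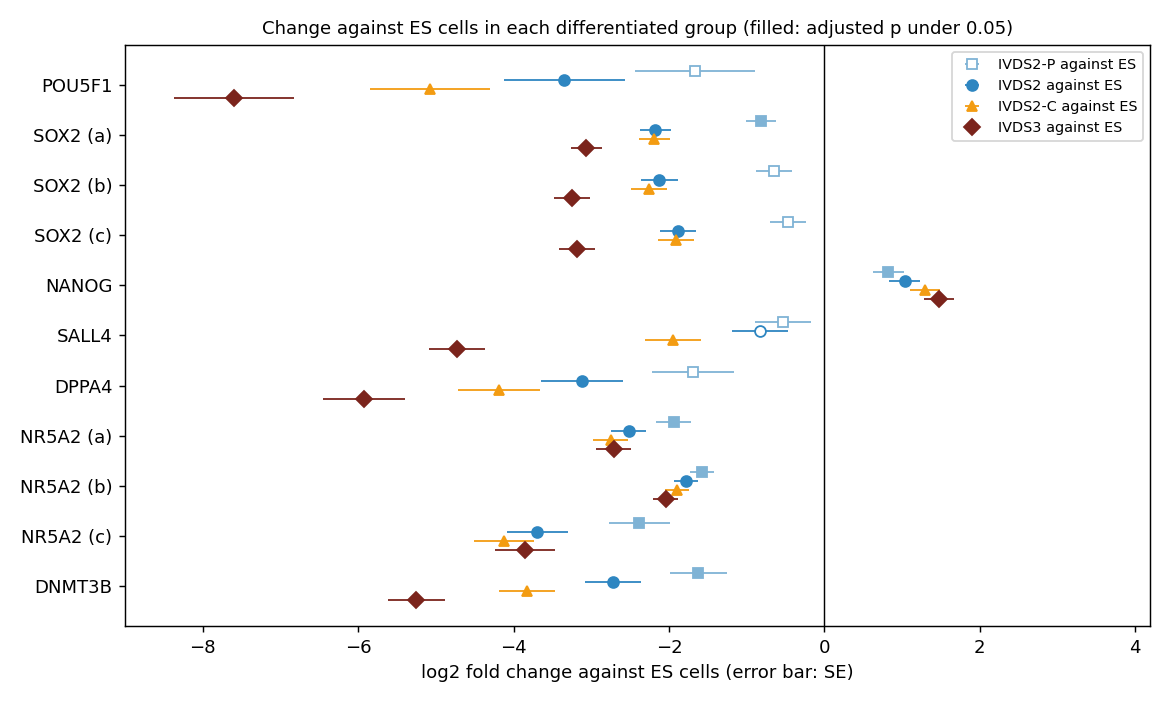
Log2 fold change against ES cells (horizontal axis, error bars are SE) of the 11 probe sets in IVDS2-P, IVDS2, IVDS2-C and IVDS3, with 2 arrays per group. Filled symbols passed the adjusted p threshold of 0.05. NANOG is the 1 gene to the right of 0, between 0.83 and 1.48, and POU5F1 in IVDS3 lies farthest to the left, at -7.60.

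SALL4, a zinc finger factor that acts with POU5F1 in ES cells and is also made in fetal liver, had its lowest values in IVDS3 by a wide margin. Its probe set (MmuSTS.1771.1.S1_at) had 0.31 and 1.42 in ES cells, -0.06 and 0.14 in IVDS2 and -3.95 and -3.79 in IVDS3. It had -0.70 and -1.48 in IVDS2-C, against 0.06 and 0.61 in IVDS2-P. The IVDS3 arrays were far below all others, and the IVDS2-P arrays overlapped those of ES cells. SALL4 fell by 4.73 ± 0.36 on the log2 scale in IVDS3 against ES cells (26.6-fold, adjusted p = 1.3e-05) and by 1.95 ± 0.36 in IVDS2-C (3.86-fold, adjusted p = 0.00483). In IVDS2 its log2 change was -0.82 ± 0.36 and in IVDS2-P -0.53 ± 0.36, and neither passed (adjusted p = 0.218 and 0.39). The ES arrays differed by 1.11, and without ES replicate 1 the change in IVDS2 was -1.38 and passed (adjusted p = 0.0308).

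DPPA4, a chromatin-associated protein of pluripotent cells and early embryos, followed POU5F1. Its probe set (MmugDNA.42677.1.S1_at) had 2.77 and 3.14 in ES cells, 0.23 and -0.55 in IVDS2 and -2.93 and -3.0 in IVDS3. It had -0.23 and -2.23 in IVDS2-C, against 1.47 and 1.06 in IVDS2-P. As with POU5F1, the 2 IVDS2-C arrays were far apart. DPPA4 fell by 5.93 ± 0.52 in IVDS3 against ES cells (60.8-fold, adjusted p = 2.99e-05), by 4.19 ± 0.52 in IVDS2-C (18.2-fold, 0.000669) and by 3.12 ± 0.52 in IVDS2 (8.67-fold, 0.00638). The change in IVDS2-P was -1.69 ± 0.52 and did not pass (adjusted p = 0.0876). As with POU5F1, it passed when either IVDS2-C array was left out, though these are not part of the comparison. The call in IVDS2 was lost without IVDS2 replicate 2.

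NR5A2 is a nuclear receptor that binds the Pou5f1 gene in mouse ES cells and, in the adult liver, regulates genes of bile acid synthesis. It was read by 3 probe sets, a (MmugDNA.17889.1.S1_at), b (MmugDNA.8461.1.S1_at) and c (MmugDNA.9427.1.S1_at). Probe set c had 3.31 and 3.73 in ES cells, 0.24 and -0.58 in IVDS2 and -0.41 and -0.24 in IVDS3. It had -0.36 and -0.85 in IVDS2-C, against 1.75 and 0.54 in IVDS2-P. The ES arrays lay above all others, and the IVDS3 arrays lay between the 2 IVDS2 arrays. Probe sets a and b had a smaller range, at 2.47 to 2.52 and 1.63 to 1.84 in ES cells and at -0.40 to 0.93 and -0.39 to 0.25 over the 8 differentiated arrays. At these probe sets the ES arrays were again above all others, and both IVDS3 arrays were below both IVDS2 arrays. All 3 probe sets fell in every differentiated group against ES cells. For probe sets a, b and c the log2 changes were -2.71, -2.04 and -3.85 in IVDS3, -2.75, -1.90 and -4.13 in IVDS2-C, -2.52, -1.78 and -3.69 in IVDS2 and -1.94, -1.57 and -2.38 in IVDS2-P. The highest adjusted p among these 12 results was 0.00705, for c in IVDS2-P, which without ES replicate 2 was 0.0573.

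DNMT3B, which sets new methyl marks on DNA in the early embryo, had 2.68 and 2.76 in ES cells, 0.52 and -0.52 in IVDS2 and -2.49 and -2.58 in IVDS3 (probe set MmuSTS.3557.1.S1_at). It had -0.60 and -1.62 in IVDS2-C, against 1.29 and 0.90 in IVDS2-P. None of the 5 groups overlapped another. DNMT3B fell by 5.25 ± 0.37 in IVDS3 against ES cells (38.1-fold, adjusted p = 7.97e-06), by 3.83 ± 0.37 in IVDS2-C (14.2-fold, 0.000172), by 2.72 ± 0.37 in IVDS2 (6.58-fold, 0.00205) and by 1.62 ± 0.37 in IVDS2-P (0.028). The last of these was lost without ES replicate 2, either IVDS2-P array or either IVDS3 array (adjusted p 0.0522 to 0.196).

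Counted over the 11 probe sets, limma called 1 higher and 9 lower in IVDS2 against ES cells, where 4.92% of all probe sets rose and 3.79% fell. In IVDS2-C it called 1 higher and 10 lower, against 11.3% and 10.2% of all probe sets, and in IVDS2-P 1 higher and 5 lower, against 4.97% and 2.58%. The probe set that rose was that of NANOG each time. All 11 calls in IVDS3, all 11 in IVDS2-C, 7 of 10 in IVDS2 and 2 of 6 in IVDS2-P held whichever array was left out. The 4 comparisons share the ES arrays and so are not independent of each other.

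The colony centre was compared with the periphery because the study asks how differentiation depends on position in the colony. In IVDS2-C against IVDS2-P, 7 of the 11 probe sets fell and 0 rose, where 2.00% of all probe sets fell and 3.85% rose. Without adjustment, 10 of the 11 had a p under 0.05 in limma, but the share of all probe sets under that unadjusted threshold was not counted. POU5F1 fell by 3.41 ± 0.77 on the log2 scale (10.6-fold, adjusted p = 0.0345), DPPA4 by 2.50 ± 0.52 (5.66-fold, 0.0251) and DNMT3B by 2.21 ± 0.37 (4.62-fold, 0.00902). The 3 SOX2 probe sets fell by 1.38, 1.61 and 1.43 (adjusted p 0.00476 to 0.00811), and NR5A2 fell by 1.75 at probe set c (0.0316). The other NR5A2 probe sets, at -0.81 and -0.32, did not pass (0.0696 and 0.297). SALL4 was at -1.42 ± 0.36, just short of the threshold (0.0523).

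NANOG was 0.47 ± 0.20 higher in IVDS2-C than in IVDS2-P, with both centre arrays above both periphery arrays, and did not pass (adjusted p = 0.222). The calls between centre and periphery rested on few arrays. Without IVDS2-P replicate 1 none of the 11 probe sets was called (0 by limma), and without IVDS2-C replicate 2 there were 2 calls, both of SOX2. Without IVDS2-C replicate 2 the POU5F1 change was -1.97 (adjusted p = 0.131) and that of DPPA4 -1.50 (0.0655), against -3.41 and -2.50 with it. The fit of the 4 compared arrays alone called 4.

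Setting the whole IVDS2 culture beside its areas showed where the neighbours in this order differed. These comparisons were added after the values had been seen. By group mean, all probe sets other than that of NANOG ran ES, IVDS2-P, IVDS2, IVDS2-C and IVDS3 from high to low, except that IVDS3 lay above IVDS2-C for NR5A2 at probe sets a and c. In IVDS2-P against IVDS2 the 3 SOX2 probe sets rose, by 1.36, 1.47 and 1.41 (adjusted p 0.0249 to 0.032), and none of the other 8 passed, where 0.321% of all probe sets rose. Each of these calls was lost without IVDS2 replicate 2 or either IVDS2-P array (adjusted p 0.0758 to 0.229). In IVDS2-C against IVDS2 limma called 0 of the 11, where it called 3.49% of all probe sets. Of the 11, 2 had an unadjusted p under 0.05, a share that was not counted over all probe sets. A difference between IVDS2-C and IVDS2 was thus not detectable for any of the 7 genes with these arrays. Without IVDS2-C replicate 1, 3 passed: POU5F1 at -3.17 (adjusted p = 0.0105), DPPA4 at -2.07 (0.00888) and DNMT3B at -1.62 (0.0411).

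In IVDS3 against IVDS2-C 5 of the 11 fell, where 7.17% of all probe sets fell. They were SALL4, at -2.78 (adjusted p = 0.000905), DNMT3B, at -1.42 (0.0286), and the 3 of SOX2, at -0.87 to -1.28. The SALL4 call held in all 10 fits that leave out 1 array, and the other calls were lost without IVDS2-C replicate 1. That of SOX2 a was also lost without IVDS3 replicate 1, and those of SOX2 b and DNMT3B without either IVDS3 array. In IVDS3 against IVDS2-P all 11 were called, 10 lower and NANOG higher by 0.65 (adjusted p = 0.0329), where 16.9% of all probe sets fell and 14.0% rose. The falls of the 3 NR5A2 probe sets depended on single arrays. Without 1 array their changes ran from -1.14 to -0.40 at a, -0.56 to -0.38 at b and -2.07 to -0.86 at c. NANOG ran in the reverse order, IVDS3, IVDS2-C, IVDS2, IVDS2-P and ES from high to low. Of its 4 steps between neighbours only that from ES to IVDS2-P passed, and the differences among IVDS3, IVDS2-C and IVDS2 were 0.18 to 0.44, with none passing. The call in IVDS3 against IVDS2-P was lost without any 1 of those 4 arrays (adjusted p 0.0763 to 0.163).

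The change between the stages was followed from IVDS2 to IVDS3. In IVDS3 against IVDS2, 7 of the 11 fell and 0 rose, where 15.0% of all probe sets fell and 13.6% rose. POU5F1 fell by 4.25 ± 0.77 (19.1-fold, adjusted p = 0.00287), SALL4 by 3.91 ± 0.36 (15-fold, 6.08e-05), DPPA4 by 2.81 ± 0.52 (7.01-fold, 0.00331) and DNMT3B by 2.53 ± 0.37 (5.78-fold, 0.000792). The 3 SOX2 probe sets fell by 0.89, 1.12 and 1.30 (0.00249 to 0.00857), though the first was lost without IVDS2 replicate 1 (0.0617) or IVDS3 replicate 1 (0.0777). None of the NR5A2 probe sets passed, at -0.19, -0.26 and -0.16 (0.27 to 0.811). NANOG was 0.44 ± 0.20 higher and did not pass (0.137), though it did without either ES array (0.0242 each), which are not part of this comparison but enter the shared estimate of spread.

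**Figure D3:**
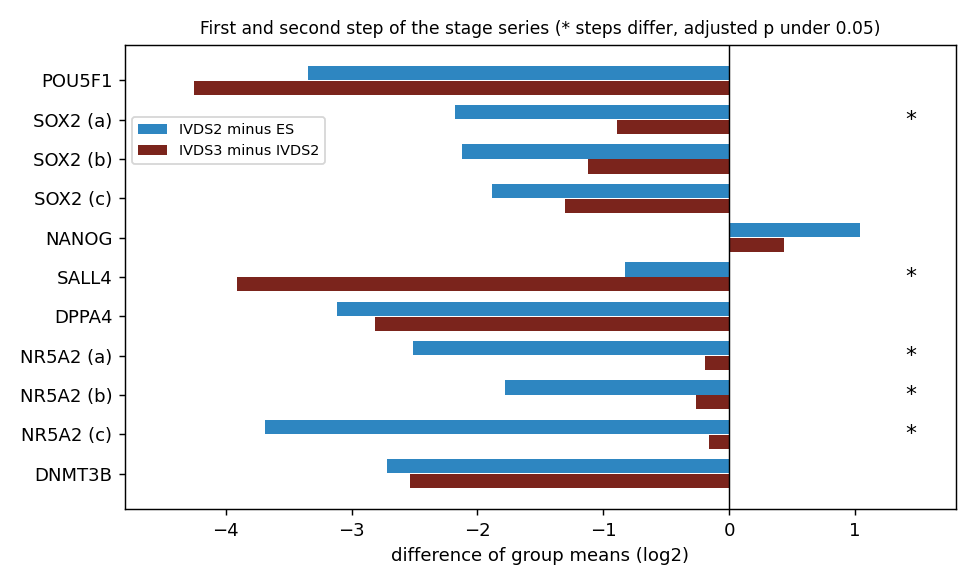
Difference of group means (log2, horizontal axis) for the first step, IVDS2 minus ES (blue), and the second, IVDS3 minus IVDS2 (dark red), of the 11 probe sets. Stars mark the 5 probe sets whose 2 steps differed in limma. NR5A2 changed in the first step by -1.78 to -3.69 and in the second by -0.16 to -0.26, while SALL4 changed by -0.82 and then by -3.91.

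The size of the second step was tested against that of the first, a contrast added after the values had been seen and one in which the IVDS2 arrays enter both steps. It was called for 5 of the 11 probe sets, 4 higher and 1 lower, where 6.64% of all probe sets were higher and 5.98% lower. The 3 NR5A2 probe sets fell early: 92.9%, 87.3% and 95.9% of the log2 change between ES and IVDS3 was present at IVDS2, and the second step minus the first was 2.32, 1.52 and 3.54 (adjusted p 0.00477 to 0.00883). SALL4 fell late, with 17.4% of its change present at IVDS2 and a difference of -3.08 ± 0.62 (0.0117). SOX2 had 59.1% to 71.0% of its change at IVDS2, and of its probe sets the first passed (1.29, 0.0396). The steps did not differ beyond their error for POU5F1 (44.0% at IVDS2), DPPA4 (52.6%), DNMT3B (51.8%) or NANOG (70.3%), with adjusted p of 0.332 to 0.908. None of the 5 calls held in all 10 fits that leave out 1 array. The NR5A2 calls were lost without IVDS2 replicate 2 (adjusted p 0.0644 to 0.108), that of SALL4 without either IVDS2 array (0.0544 and 0.105), and that of SOX2 in 7 of the 10 fits.

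The 2 arrays of a group differed in these genes, in 4 of the 5 groups mostly in a shared direction. In IVDS2-C all 10 probe sets other than that of NANOG were lower on replicate 2 than on replicate 1, with a median difference of -0.57, and POU5F1 (-2.87) and DPPA4 (-2.00) were farthest apart. In IVDS2 and in IVDS2-P 9 of these 10 were lower on replicate 2, with medians of -0.58 and -0.30. In each of these groups NANOG was higher on replicate 2, by 0.21 in IVDS2-C, 0.05 in IVDS2 and 0.16 in IVDS2-P. In ES cells 9 of the 10 were higher on replicate 2, with a median of 0.30, and NANOG was 0.67 lower. In IVDS3 3 of the 10 were lower and 7 higher on replicate 2, with a median of 0.16, and NANOG differed by -0.06. Over all tested probe sets the median difference was between -0.02 and 0.03 in every group and its SD was 0.24 to 0.40, and 46.7% to 54.2% of probe sets were lower on replicate 2. The replicate number is no order, and members that vary together are not independent, so this is a description of 2 arrays per group.

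**Figure D4:**
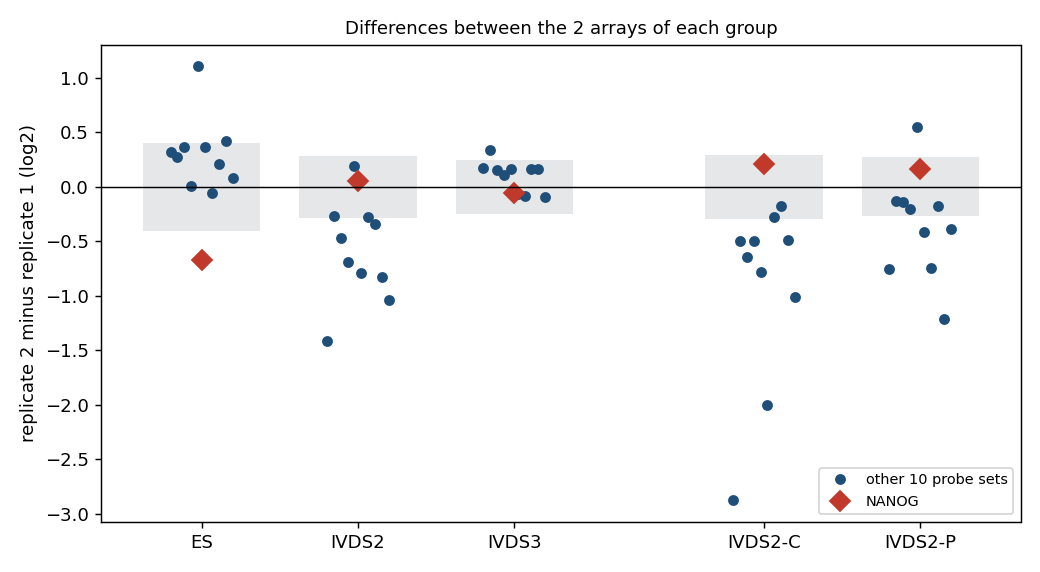
Replicate 2 minus replicate 1 (log2, vertical axis) in each group, for the NANOG probe set (red) and the other 10 (blue). Grey bars span 1 SD of the difference on either side of 0 over all tested probe sets. In IVDS2-C all 10 blue points are below 0, down to -2.87 for POU5F1, and NANOG is above it at 0.21.

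The likeness of patterns over the 10 arrays was measured as the root mean square difference of centred values, in log2 units, so that small changes count as well as shape. Among the members DPPA4 and DNMT3B were closest, at 0.345. NANOG lay 1.68 or more from each of the others, but some members that fell together were as far apart. POU5F1 lay 1.79 from SOX2 and 2.14 from NR5A2, and SALL4 lay 1.86 from NR5A2. SOX2 was nearer to NANOG (1.68) than to POU5F1, so this distance alone does not set NANOG apart. Among all other named genes POU5F1 was closest to SFRP1 (0.73) and SFRP2 (1.08), both secreted Wnt antagonists, SPP1 (1.19), the secreted phosphoprotein osteopontin, BEND4 (1.26) and FST (1.28), the activin antagonist follistatin. SFRP1 averaged 2.28 in ES cells, 0.00 in IVDS2 and -3.92 in IVDS3. Of these 5 genes, 4 or 5 remained the closest whichever array was left out.

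NANOG was closest to MACROH2A1 (0.10), which codes for a variant histone, SCYL3 (0.14), CAPN7 (0.14), the glutathione transferase gene GSTA2 (0.14) and ZC2HC1A (0.15). MACROH2A1 averaged -0.90 in ES cells, 0.00 in IVDS2 and 0.33 in IVDS3. Without ES replicate 2 only 1 of these 5 genes remained among the closest, so the list rests largely on that array.

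The rest of the pluripotency network was followed through gene lists. Their counts stand beside 17.9% of all probe sets that rose and 19.9% that fell in IVDS3 against ES cells (median -0.11), and 3.85% and 2.00% between centre and periphery (median -0.02). Of 18 measured genes among other pluripotency factors (30 probe sets), 5 probe sets rose and 16 fell in IVDS3 against ES cells, with a median log2 change of -0.69. LIN28B, an RNA-binding protein that blocks let-7 maturation, fell by 3.52 ± 0.29, VRTN by 3.37 ± 0.26 and FOXD3, a forkhead factor of ES cells and neural crest, by 3.02 ± 0.55. The 2 ES arrays of FOXD3 were far apart, at 0.37 and 2.27, and without 1 array its change ran from -3.97 to -2.07. ZSCAN10, another factor of ES cells, fell by 2.79 ± 0.24. NANOG was not alone in rising. KLF5, a Krüppel-like factor of ES cells and of epithelia, rose by 6.09 ± 0.35 (68.2-fold, adjusted p = 3e-06) and had -3.02 and -2.88 in ES cells, 0.53 and -0.53 in IVDS2 and 3.17 and 3.11 in IVDS3. KLF4 rose by 2.34 ± 0.39 (5.06-fold, 0.00114) and stood at -0.23 and -1.08 in IVDS2, below its 0.40 and 0.70 in ES cells, so its mean was not higher in IVDS2. TBX3 rose by 0.93 ± 0.19 at 1 probe set and not over the mean of its probe sets (0.31, adjusted p = 0.158).

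In the colony centre against the periphery 3 probe sets of this list rose and 5 fell. KLF5 rose by 3.89 ± 0.44 and TBX3 by 1.70 ± 0.19, the latter at 1 of its probe sets. VRTN fell by 1.26 ± 0.26 and SOX3, a close relative of SOX2, by 1.21 ± 0.13. Centre arrays of KLF5 (1.42 and 2.49 at its second probe set) lay above the periphery arrays (-2.30 and -1.55), the reverse of POU5F1. The VRTN call was lost without IVDS2-C replicate 2 (adjusted p = 0.209) or IVDS2-P replicate 1 (0.172).

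Signalling genes and surface proteins of pluripotent cells moved both ways. Of 20 measured genes (45 probe sets), 15 probe sets rose and 7 fell in IVDS3 against ES cells, with a median of -0.004. Of all probe sets 17.9% rose and 19.9% fell. The share of this list that fell was thus not above that of all probe sets, while the share that rose was above it. FGF2, the growth factor also added to the ES medium, fell by 3.93 ± 0.28. The surface protein PROM1 fell by 3.92 ± 0.18, FGF4, a target of POU5F1 and SOX2, by 2.55 ± 0.47, and the receptor FGFR1 by 2.30 ± 0.16. The ES arrays of FGF4 were far apart, at 0.99 and 2.87, and without 1 array its change ran from -3.49 to -1.61. SMAD3, which carries NODAL and activin signals to the nucleus, rose by 2.32 ± 0.27, the tetraspanin CD9 by 1.35 ± 0.15, the cadherin CDH1 by 1.16 ± 0.24, and the activin receptor ACVR1B by 0.97 ± 0.19 at 1 probe set but not over the mean of its probe sets (0.27, adjusted p = 0.0941). In the centre against the periphery 5 probe sets rose and 3 fell. CD9 rose by 1.51 ± 0.22 and CDH1 by 1.20 ± 0.24, and FGF2 fell by 1.44 ± 0.28 and PROM1 by 0.80 ± 0.18. The CDH1, FGF2 and PROM1 calls were lost without IVDS2-C replicate 2 (adjusted p 0.166 to 0.304) or IVDS2-P replicate 1 (0.14 to 0.159), those of FGF2 and PROM1 also without IVDS2-P replicate 2 (0.0619 and 0.169), and that of PROM1 without either IVDS3 array (0.0635).

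The genes that write and erase DNA methylation, the process DNMT3B serves, moved both ways. Of 7 measured genes (12 probe sets), 6 probe sets fell and 2 rose in IVDS3 against ES cells, with a median of -0.36. TET1, which oxidises methylcytosine and is high in ES cells, fell by 3.50 ± 0.33, UHRF1, which guides maintenance methylation, by 2.40 ± 0.27, DNMT3A, the other de novo enzyme, by 1.01 ± 0.17, and DNMT3L by 0.49 ± 0.14. TET2 rose by 2.52 ± 0.16. The DNMT3L call was lost without ES replicate 1 or either IVDS3 array (adjusted p 0.0752 to 0.0998). In the centre against the periphery 2 probe sets fell and 0 rose. TET1 fell by 1.38 ± 0.30, a call lost without IVDS2-C replicate 2 (0.173), either IVDS2-P array (0.0744 and 0.184) or either IVDS3 array (0.0502).

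Family relatives of the members, with 6 measured genes and 8 probe sets, had 3 that fell and 0 that rose in IVDS3 against ES cells (median -0.31). SALL2 fell by 2.26 ± 0.18, POU2F1 by 1.18 ± 0.12 and SOX21 by 0.58 ± 0.18. SOX21 lost its call without ES replicate 2 or either IVDS3 array (adjusted p 0.0637 to 0.161). In the centre against the periphery SALL2 fell by 1.11 ± 0.18 and POU2F1 by 0.51 ± 0.12, 2 of the 8 probe sets. Both calls were lost without IVDS2-C replicate 2 or either IVDS2-P array (adjusted p 0.053 to 0.364), and that of POU2F1 also without any of the IVDS2 or IVDS3 arrays (0.0606 to 0.0711).

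Lineage factors known to oppose or replace the pluripotency factors, with 14 measured genes and 22 probe sets, had 8 that rose and 6 that fell in IVDS3 against ES cells (median -0.20). GATA3, a factor of trophoblast and surface ectoderm, rose by 4.76 ± 0.31, NR2F2 by 4.66 ± 0.35 and NR2F1 by 4.06 ± 0.56, both nuclear receptors that can repress the POU5F1 gene, and PAX6, a factor of neural ectoderm, by 3.59 ± 0.53. NR6A1, a nuclear receptor that represses Pou5f1 in mouse embryos, fell by 2.16 ± 0.37, TCF7L1, which restrains Nanog in mouse ES cells, by 1.18 ± 0.13, and EOMES, a factor of endoderm, by 0.90 ± 0.29. NR2F2 had -3.98 and -5.33 in ES cells, 0.09 and 0.07 in IVDS2 and 0.004 and -0.004 in IVDS3, so its difference from ES cells was already there at IVDS2. The EOMES call was lost without any 1 of the ES or IVDS3 arrays (adjusted p 0.0664 to 0.14). In the centre against the periphery 3 probe sets rose and 1 fell. GATA3 rose by 3.64 ± 0.36 and NR2F2 by 1.13 ± 0.27, and NR6A1 fell by 1.17 ± 0.24. NR2F2 kept its call in 2 of the 10 fits that leave out 1 array and was lost at the mean of its probe sets (0.98, adjusted p = 0.0821). NR6A1 was lost without IVDS2-C replicate 2 or either IVDS2-P array (0.0715 to 0.21).

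Markers of other cell types moved with these groups, and their part in the results was not tested. Of 28 probe sets (15 genes) for trophoblast and amnion, 22 rose in IVDS3, 22 in IVDS2-C, 19 in IVDS2 and 8 in IVDS2-P against ES cells, and 0 fell. The shares of all probe sets that rose were 17.9%, 11.3%, 4.92% and 4.97% in the same order of groups. Between centre and periphery 21 rose and 0 fell, with a median of 1.71. The mean of this list was 0.68 and 0.87 on the IVDS2-C arrays, against -1.20 and -1.03 on those of IVDS2-P, and it was -1.88 and -1.58 in ES cells, 0.32 and 0.04 in IVDS2 and 1.03 and 1.14 in IVDS3. GATA3, CDX2, TFAP2A and TFAP2C are in this list and also in another list used here.

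Of 26 probe sets (11 genes) for fibroblast-like cells, such as those of the co-culture, 16 rose and 3 fell in IVDS3 and 14 rose and 3 fell in IVDS2-C against ES cells. In IVDS2 3 rose and 2 fell, in IVDS2-P 6 rose and 2 fell, and in the centre against the periphery 6 rose and 1 fell. Of all probe sets, 17.9% rose and 19.9% fell in IVDS3, 11.3% and 10.2% in IVDS2-C, 4.92% and 3.79% in IVDS2 and 4.97% and 2.58% in IVDS2-P. Between centre and periphery 3.85% of all probe sets rose and 2.00% fell. The list mean was -0.14 and -0.39 in ES cells, -0.16 and -0.03 in IVDS2 and 1.62 and 1.44 in IVDS3, and it was 0.32 and 0.38 in IVDS2-C, against -0.06 and -0.01 in IVDS2-P.

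Germ cells also make NANOG, and of their 16 probe sets (9 genes) 5 rose and 2 fell in IVDS3, 5 rose and 2 fell in IVDS2-C, 8 rose and 2 fell in IVDS2 and 3 rose and 2 fell in IVDS2-P against ES cells. The shares of all probe sets that rose or fell in these groups are those given above beside the fibroblast-like cells. In IVDS2 the germ cell probe sets that rose were of TFAP2A, TFAP2C, PRDM1 and KIT, and PDPN fell. PRDM1, a repressor of early germ cells, rose by 3.07 and 1.71 at 2 of its 3 probe sets and the receptor KIT by 1.77. In IVDS3 and in IVDS2-C those that rose were of TFAP2A and TFAP2C, which are in the trophoblast and amnion list too. NANOS3, a germ cell gene, had -0.11 and -0.06 in IVDS2 and -0.08 at both probe sets in IVDS3, and did not pass. The part of these markers in the NANOG result was not tested. Because the values are centred, no marker can be called absent from any array. The difference between 3' and 5' control probe sets lay between -0.24 and 0.16 for actin and between -0.08 and 0.07 for GAPDH over the 10 arrays. These values are centred too, so they compare the arrays with each other and do not show how intact the RNA of any array was.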

How the data were processed

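RNA of 10 samples in 5 groups of 2, taken from the sample titles, was measured on Affymetrix rhesus macaque arrays. Per the labels, biotinylated cRNA was made from DNase-treated total RNA, and the submitters' processing notes name RMA with no version. The deposited values are log2 expression values centred by the authors on each probe set's median (largest absolute median 5e-07). The log base was inferred from their range. Centring removes level and detection, so probe sets near background cannot be told from the others. Precision is also limited by the number of arrays. The 84 control probe sets were left out. All columns of values were used.

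Genes came from the platform annotation: 22802 probe sets have 1 gene, 316 several and 21092 none. The 11 studied here matched RefSeq by gene number. All 10 arrays were fitted in limma 3.58.1 (R 4.3.3) with a term per group and a moderated variance (prior degrees of freedom 4.33, beside 5 residual ones), and p-values were adjusted by Benjamini-Hochberg over 44210 probe sets in each comparison. The fit was tested on simulated data.

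The 6 comparisons were IVDS2, IVDS2-C, IVDS2-P and IVDS3 against ES, IVDS3 against IVDS2, and IVDS2-C against IVDS2-P. A further 4, and the test of the second step against the first, were added after the values were seen. The genes studied, the gene lists and the alternatives were chosen with earlier results of these data known. Named list genes are up to 4 called genes of largest change in each direction in IVDS3 against ES and up to 2 between IVDS2-C and IVDS2-P, each at its most changed probe set, and the 5 genes nearest in pattern to POU5F1 and to NANOG. Alternatives were the mean or the most variable probe set of a gene, centring of arrays, the compared arrays alone, a replicate block, a robust prior, leaving out probe sets prone to cross-hybridisation, and leaving out each array in turn. The largest median shift of all probe sets was -0.11, in IVDS3 against ES.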

Additional observations from a re-analysis of the deposited data

Results flagged for a closer look

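For 7 of the 11 probe sets, the change against ES cells in the colony centre differed from that in the periphery. The difference between both changes was tested in limma as IVDS2-C minus IVDS2-P, since the ES arrays cancel. It was -3.41 for POU5F1, -1.38, -1.61 and -1.43 for the 3 SOX2 probe sets, -2.50 for DPPA4, -1.75 for NR5A2 at probe set c and -2.21 for DNMT3B, on the log2 scale. These values are those of the centre and periphery comparison given above, in which 2.00% of all probe sets fell and 3.85% rose. As described there, the calls rested on few arrays, and each of the 7 depended on single arrays. For POU5F1 the difference ran from -4.85 to -1.97 over the fits without 1 array. Groups of 2 arrays allow no search for single arrays that stand apart.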

How the results depend on the processing

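With 2 arrays per group, 1 array carries much of several calls, and centred values give no signal over background. Over all results and alternatives, 2497 values kept direction and side of the threshold, 169 lost a call, 32 gained one and 17 uncalled values changed sign. The labels do not say whether the replicate numbers pair the arrays, and the values do not settle it. Same-numbered deviations correlated at -0.12 to 0.25 over 10 pairs of groups, 5 of them above 0.1. Within stage 2, IVDS2-P correlated at 0.25 with IVDS2 and at 0.23 with IVDS2-C, and IVDS2 with IVDS2-C at 0.08. With a replicate block, limma called 10 members in IVDS2, 11 in IVDS2-C, 6 in IVDS2-P and 11 in IVDS3 against ES, and 7 in IVDS3 against IVDS2. In IVDS2-C against IVDS2-P it called 9 with the block and 7 without it. The NANOG rises in IVDS2 and IVDS2-P were lost with the 4 compared arrays alone (adjusted p = 0.0677 and 0.138). Causes were not tested except where fewer arrays or genes entered.

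Leaving out each array in turn, member calls ranged from 2 to 8 for IVDS2-P against ES, 0 to 8 for IVDS2-C against IVDS2-P, 0 to 3 for IVDS2-C against IVDS2, 0 to 4 for IVDS2-P against IVDS2, 1 to 7 for IVDS3 against IVDS2-C, 7 to 11 for IVDS3 against IVDS2-P and 0 to 6 for the 2 steps. The compared arrays alone gave 4 for IVDS2-C against IVDS2-P. Gene means and the most variable probe sets, which reduce 11 probe sets to 7 genes, gave 1 for IVDS2-P against IVDS2 and 2 for the steps. For the lists in IVDS2-C against IVDS2-P, the ranges were 4 to 9 (other pluripotency factors), 2 to 9 (signalling and surface), 0 to 2 (DNA methylation), 0 to 2 (relatives) and 2 to 6 (lineage factors). There the compared arrays alone gave 5 for signalling, 1 for DNA methylation and 1 for relatives, gene means and most variable probe sets gave 6 for signalling, and the latter gave 1 for lineage factors.

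The values that changed sign were not called, with all arrays or under the alternative. Centring arrays gave 0.0102 and 0.00651 for SOX2 a and c in IVDS2-C against IVDS2. Ranges over the fits without 1 array were -1.08 to 0.025 for SALL4 in IVDS2-P against ES and -0.57 to 0.26 for NR5A2 c in IVDS3 against IVDS2. In IVDS2-C against IVDS2 they were -0.27 to 0.23, -0.45 to 0.18 and -0.37 to 0.33 for SOX2 and -0.28 to 0.056 for NR5A2 b, and in IVDS3 against IVDS2-C -0.10 to 0.18 for NR5A2 a. For the second step minus the first they were -2.32 to 0.50 for POU5F1, -0.12 to 1.27 for SOX2 c, -0.48 to 1.09 for DPPA4 and -0.85 to 1.22 for DNMT3B.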

Other observations

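The genes that lie within 4 protein-coding genes of each member in the RefSeq order were read as well, a choice made after the values had been seen. Beside NANOG, 3 such genes had a probe set. GDF3, a growth factor of pluripotent cells, changed by -0.57 on the log2 scale in IVDS3 against ES cells and did not pass (adjusted p = 0.0586, limma). LOC715795, the next gene on one side of NANOG, rose by 0.90 in IVDS2 and fell by 0.78 in IVDS3, both against ES cells. TAS2R14, a bitter taste receptor gene, fell by 0.44 in IVDS3 (adjusted p = 0.0148). Beside POU5F1, CCHCR1 was at -0.56 and CDSN at 0.06 in IVDS3 against ES cells, and neither passed (adjusted p = 0.0714 and 0.76). Neighbours of the other members that were not called are left out here, and the share called was not counted. Those called in IVDS3 against ES cells went both ways, where 17.9% of all probe sets rose and 19.9% fell. Those that fell were DNAJC19 (-1.08, at 1 of 2 probe sets) and LOC706634 (-0.59) beside SOX2, ZNF217 (-1.18) beside SALL4, NECTIN3 (-1.14 and -1.03) beside DPPA4, LOC709633 (-2.69) beside NR5A2 and MAPRE1 (-0.66 and -0.70) beside DNMT3B. Those with a probe set that rose were ATP11B beside SOX2, NFATC2 and TSHZ2 beside SALL4, ZBED2 beside DPPA4, LHX9 and NEK7 beside NR5A2 and ASXL1 beside DNMT3B, with log2 changes of 0.56 (ASXL1) to 5.45 (LHX9).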
